A study of Rattus norvegicus with 18 samples.

Results

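The calcitonin family was followed here through medullary thyroid carcinomas of rats with 8 genes chosen by symbol: the peptide genes Calca, Calcb and Adm, and the receptor genes Calcr, Calcrl, Ramp1, Ramp2 and Ramp3. All 8 were found among the 14506 genes named on the array, each with 1 probe set. Medullary thyroid carcinoma is a tumour of the C cells, the calcitonin-producing cells that lie between the follicles of the thyroid. The tumours came from MENX rats of the strain Sprague–Dawley white eye/Wistar–Kyoto, which carry an inherited mutation of Cdkn1b, the gene of the cell cycle inhibitor p27Kip1. The 18 arrays formed 3 groups of 6: tumours of homozygous mutants aged 9 months, of heterozygous mutants aged 9 months and of heterozygous mutants aged 18 months. Each array has its own animal code in the labels. Every animal carried the mutation in the germline, all were untreated, and neither wild-type rats nor normal thyroid were among the samples.

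Calca is read in 2 ways. In C cells its transcript is spliced mainly to the mRNA of calcitonin, the hormone that lowers blood calcium, and in sensory neurons to that of alpha-CGRP, a vasodilator peptide. Calcb encodes the beta form of CGRP, and Adm encodes adrenomedullin, a vasodilator made by many cell types. Calcitonin acts on the receptor Calcr. CGRP and adrenomedullin act on Calcrl, which reaches the cell surface only with a partner of the RAMP family: Ramp1 makes a CGRP receptor, and Ramp2 or Ramp3 make adrenomedullin receptors. Calcrl and Ramp2 are known mainly from endothelial cells.

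Values are log2 intensities normalised by RMA, so a difference of 1 is a doubling. No source used here says which part of each transcript the probe sets cover. The Calca value therefore does not separate calcitonin mRNA from alpha-CGRP mRNA, and cross-hybridisation between Calca and its paralogue Calcb was not tested. Levels were not compared between genes, since probe sets differ in brightness. The granule gene Chga averaged 12.5 or more in both heterozygous groups. In each of the 3 groups its highest tumour also had the highest mean of 5 parathyroid genes, so Chga was not read as a sign of C cells alone. The C cell receptor Ret averaged 11.07 and 11.13 in heterozygous tumours of 9 and 18 months, so a gene of C cells was bright in the specimens. So were genes of other cells: the follicular product Tg lay between 11.1 and 14.4 in the 18 tumours, and the parathyroid hormone gene Pth between 6.02 and 14.3. Cdkn1b mRNA averaged 11.1 in homozygous tumours and 10.8 and 10.9 in heterozygous tumours of 9 and 18 months; every group carries the mutation, so its mRNA level does not check the labels. The first principal component of all genes (63.9% of the variance) set apart replicates 1, 2, 3 and 6 of the 18-month group, at 35.8 to 69.9. Replicates 4 and 5 of that group lay at -11.7 and 4.21, and the homozygous tumour 3 at 24.0, above the other 11 tumours of 9 months (-28.6 to -9.68). In bulk tumour RNA, fewer cells of a type and less RNA per cell cannot be told apart.

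Promoter sequences of 300 bases, 250 before and 50 after the gene's start, were found in RefSeq (GRCr8) for 6 of the 8 genes; Calcb and Ramp2 had no entry. They are shown for Calca and Adm, the peptide genes with an entry, and for Calcrl, the receptor gene that fell farthest. Letters in capitals mark matches on either strand to short motifs. The half-site of cAMP response elements was searched as TGACG. The core of hypoxia response elements was searched in both of its usual spellings, which are ACGTG and, with another first letter that the hypoxia factors also accept, GCGTG. The TATA element was searched as TATAA, and overlapping matches share capitals.
Calca, chr1:178317480-178317779, minus strand: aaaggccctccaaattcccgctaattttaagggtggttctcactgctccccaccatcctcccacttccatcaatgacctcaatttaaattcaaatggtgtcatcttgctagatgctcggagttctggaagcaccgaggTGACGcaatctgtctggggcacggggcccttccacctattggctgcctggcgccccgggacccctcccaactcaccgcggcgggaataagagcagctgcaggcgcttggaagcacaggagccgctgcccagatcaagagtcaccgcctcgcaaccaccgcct
Adm, chr1:174179950-174180249, plus strand: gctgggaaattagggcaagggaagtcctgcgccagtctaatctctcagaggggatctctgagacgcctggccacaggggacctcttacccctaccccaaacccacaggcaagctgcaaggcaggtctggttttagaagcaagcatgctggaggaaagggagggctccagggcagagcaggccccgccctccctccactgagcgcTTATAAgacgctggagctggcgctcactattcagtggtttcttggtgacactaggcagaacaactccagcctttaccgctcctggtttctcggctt
Calcrl, chr3:89932567-89932866, minus strand: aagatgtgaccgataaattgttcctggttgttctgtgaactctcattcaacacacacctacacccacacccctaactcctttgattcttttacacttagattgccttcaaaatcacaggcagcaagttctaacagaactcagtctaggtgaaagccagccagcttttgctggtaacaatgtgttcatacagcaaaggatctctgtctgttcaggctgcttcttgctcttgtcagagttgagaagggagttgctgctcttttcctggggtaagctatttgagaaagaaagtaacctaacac
The Calca window held 1 match to TGACG, 112 bases before the start, a motif present in 21.2% of all 33469 promoters of this length. The Adm window held TATAA on both strands, in letters that overlap, with the first base of the match on the printed strand 45 bases before the start; 26.2% of promoters hold such a match. Neither window held the hypoxia core in either spelling, and the Calcrl window held none of the motifs. The hypoxia core was in 41.6% of promoters, and among the 6 genes only Ramp1 and Ramp3 held it, with 1 match each. A match describes letters in this window, not a bound site.

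The question of age was asked in heterozygous tumours, at 18 against 9 months. All 3 peptide genes rose and 3 of the 5 receptor genes fell. Of the 8 genes 7 were bright enough to be tested, and 6 of these passed, 3 in each direction, by limma's moderated test with a Benjamini-Hochberg adjusted p under 0.05. Over all 11370 genes tested 44.1% passed this threshold, 21.6% higher and 22.4% lower at 18 months, so single calls are common in this comparison.

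Calca, the calcitonin gene, had a lowest, median and highest value of 13.75, 13.81 and 13.92 in heterozygous tumours of 9 months. At 18 months these values were 14.01, 14.07 and 14.12. Every older tumour thus lay above every younger one, replicates 4 and 5 included (14.04 and 14.02). The rise was 0.24 (SE 0.05, 95% interval 0.14 to 0.34), 1.18-fold, with a limma adjusted p of 0.00112. The groups did not overlap in this direction for 9.07% of all genes. Calca lay only 0.31 to 0.70 below the brightest probe set of its own array. Intensities near the top of the scale compress differences; how far this touches the size of the rise was not tested.

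Calcb, the beta-CGRP gene, showed the widest change. It measured 8.53 at lowest, 8.96 at the median and 9.47 at highest in heterozygous tumours of 9 months. At 18 months replicates 1, 2, 3 and 6 measured 12.81, 13.31, 13.04 and 12.18. Replicates 4 and 5 measured 9.72 and 10.10, above every younger heterozygous tumour but far below the other 4. The mean went from 8.99 ± 0.41 (SD, n = 6) to 11.9 ± 1.56 (SD, n = 6), a rise of 2.87 (SE 0.63, 95% interval 1.55 to 4.20) or 7.32-fold, with a limma adjusted p of 0.00204. Without replicates 4 and 5 the rise of Calcb was 3.85 (SE 0.49). As these were the lowest older tumours, leaving them out widens the difference by construction. No older tumour lay between 10.10 and 12.18, so the mean of 11.9 lay where no tumour was measured.

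The same 4 tumours differed from replicates 4 and 5 in follicular RNA, and less clearly in neuroendocrine RNA, where replicates 6 and 5 lay close. The mean of 14 follicular genes was 7.44, 9.24, 9.00 and 9.43 in replicates 1, 2, 3 and 6, and 10.7 and 10.5 in replicates 4 and 5, against 10.8 to 10.9 in the 9-month heterozygous tumours. Of 12 follicular genes tested 10 fell and 2 did not pass, where 22.4% of all genes fell. The mean of 29 C cell and neuroendocrine genes, a list without Calca and Calcb, ran from 8.85 to 9.39 at 9 months. It was 10.09, 10.14, 10.02 and 9.85 in replicates 1, 2, 3 and 6 at 18 months, and 9.36 and 9.75 in replicates 4 and 5. Of 25 tested genes of this list 15 rose, 2 fell and 8 did not pass, where 21.6% of all genes rose. The part of these lists in the rise of Calcb was not tested.

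Adm, the adrenomedullin gene, rose more evenly. Its lowest, median and highest values were 8.12, 8.41 and 8.57 at 9 months and 8.80, 9.39 and 9.77 at 18 months, again without overlap. The rise was 0.94 (SE 0.14, 95% interval 0.65 to 1.24), 1.92-fold, with a limma adjusted p of 0.000319. Replicate 5 of the 18-month group, low for Calcb, was the next highest for Adm at 9.49, after replicate 6, while replicate 4 was the lowest for both genes. Without replicates 4 and 5 the Adm rise was 1.04 (SE 0.13). Replicate 6 also had the highest mean of 12 macrophage genes, 8.78 against 7.83 to 8.09 in the other 5 older tumours and 7.89 to 8.19 in the younger heterozygous ones. Of these 12 genes 3 rose, 1 fell and 8 did not pass, where 21.6% of all genes rose and 22.4% fell. Without replicate 6 the Adm rise was 0.86.

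**Figure D1:**
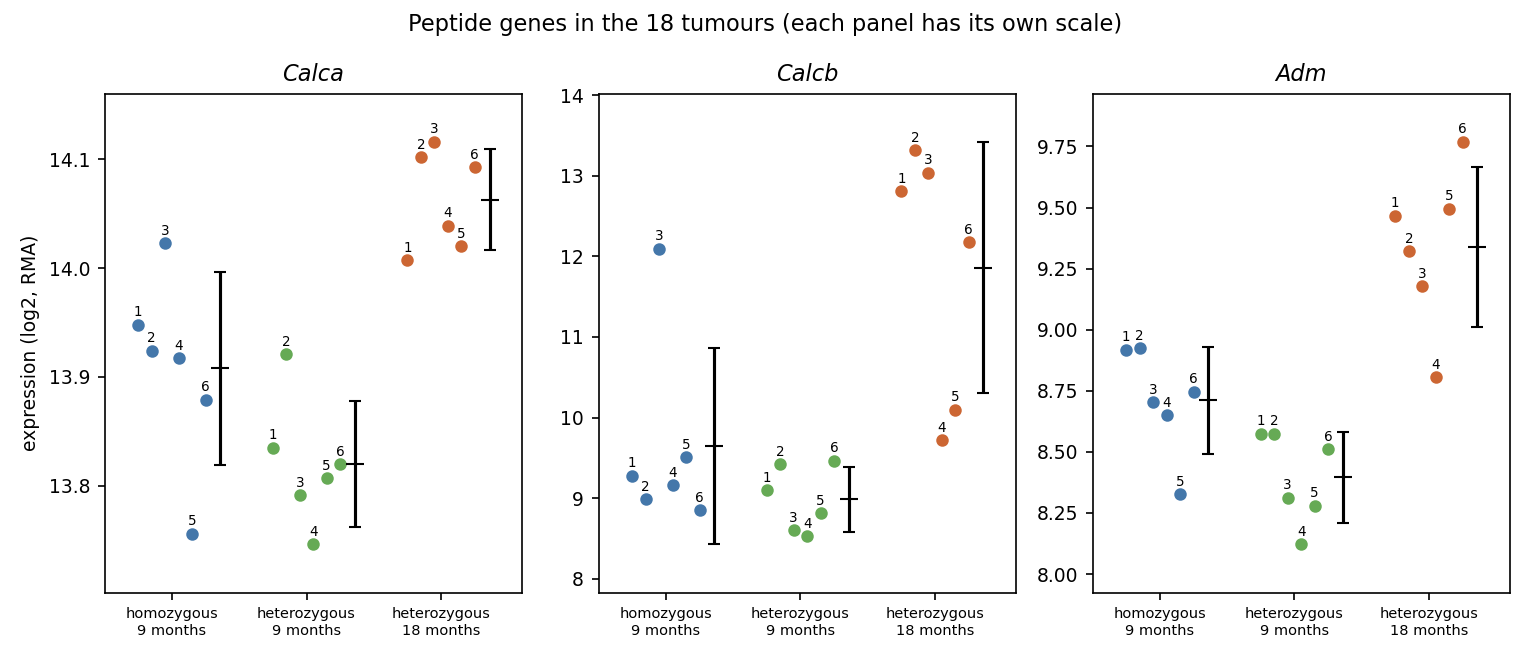
Expression of Calca, Calcb and Adm in log2 units (vertical axes, one scale per panel) in the 3 groups of 6 tumours. Points are tumours numbered by replicate, and bars give the mean and SD. For all 3 genes every heterozygous tumour of 18 months lies above every heterozygous tumour of 9 months; replicates 4 and 5 of the older group and homozygous replicate 3 stand apart from their groups for Calcb.

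Other peptides of the family were not called. Adm2, which encodes intermedin, a further ligand of Calcrl, differed by -0.08 (SE 0.13, 95% interval -0.34 to 0.19; limma adjusted p = 0.638) between 18 and 9 months. Iapp, the amylin gene, lay below the level set for testing (a mean of 6.32 over the arrays), with medians of 5.96 and 6.38 at 9 and 18 months. A single older tumour, replicate 2, reached 8.38 for Iapp.

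Among the receptor genes Calcrl, the shared receptor of CGRP and adrenomedullin, fell farthest. It measured 9.87 at lowest, 9.99 at the median and 10.10 at highest in heterozygous tumours of 9 months, and 8.03, 8.75 and 9.58 at 18 months, so that all 6 older tumours lay below the younger ones. The groups did not overlap in this direction for 9% of all genes. The fall was -1.18 (SE 0.26, 95% interval -1.72 to -0.64), 2.26-fold, with a limma adjusted p of 0.00194. Replicates 4 and 5 were again nearest to the younger tumours, at 9.37 and 9.58, and without them the difference was -1.50 (SE 0.24).

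Ramp2, the adrenomedullin receptor partner, fell by 0.58 on the log2 scale (SE 0.18, limma adjusted p = 0.0136). Its median was 8.74 at 9 months (8.61 to 8.79) and 8.29 at 18 months (7.46 to 8.48), and the groups did not overlap. Ramp3, the other partner for adrenomedullin, fell by the same 0.58 (SE 0.19, limma adjusted p = 0.0190), from a median of 8.85 (8.64 to 9.07) to one of 8.10 (7.62 to 9.03). For Ramp3 the groups overlapped: replicate 4 at 9.03 and replicate 5 at 8.74 lay within the younger range and the other 4 older tumours below it. By the exact permutation test over 924 assignments, which called 37.5% of all genes, Ramp3 did not pass (adjusted p = 0.0800). Without replicates 4 and 5 Ramp3 differed by -0.89 (SE 0.13).

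Ramp1, the partner that makes a CGRP receptor, did not pass the threshold: it differed by -0.19 (SE 0.09, 95% interval -0.37 to -0.01; limma adjusted p = 0.0847). Its values ran from 7.87 to 8.23 at 9 months and from 7.62 to 8.12 at 18 months, with 3 of 6 older tumours below the younger range. Without replicates 4 and 5 of the 18-month group the Ramp1 difference was -0.23 (SE 0.09) and passed (limma adjusted p = 0.0449). It also passed without replicate 4 alone (-0.24, limma adjusted p = 0.0244) and without heterozygous replicate 1 of 9 months (-0.23, limma adjusted p = 0.0469). Replicate 4 was the highest older tumour for Ramp1 (8.12) and that replicate 1 the lowest younger one (7.87). Leaving out either widens the difference by construction, so these fits do not check the fall.

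Calcr, the calcitonin receptor itself, stayed at the dim end of the scale. Its values lay between 5.30 and 6.00 in all 18 tumours, below the testing level of 6.32, with medians of 5.48 in homozygous tumours, 5.54 in heterozygous tumours of 9 months and 5.56 in those of 18 months. In a fit without that level Calcr differed by 0.07 (95% interval -0.13 to 0.27; limma adjusted p = 0.629) between the ages. At such a level a probe set may not follow its transcript, and no difference was detectable.

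**Figure D2:**
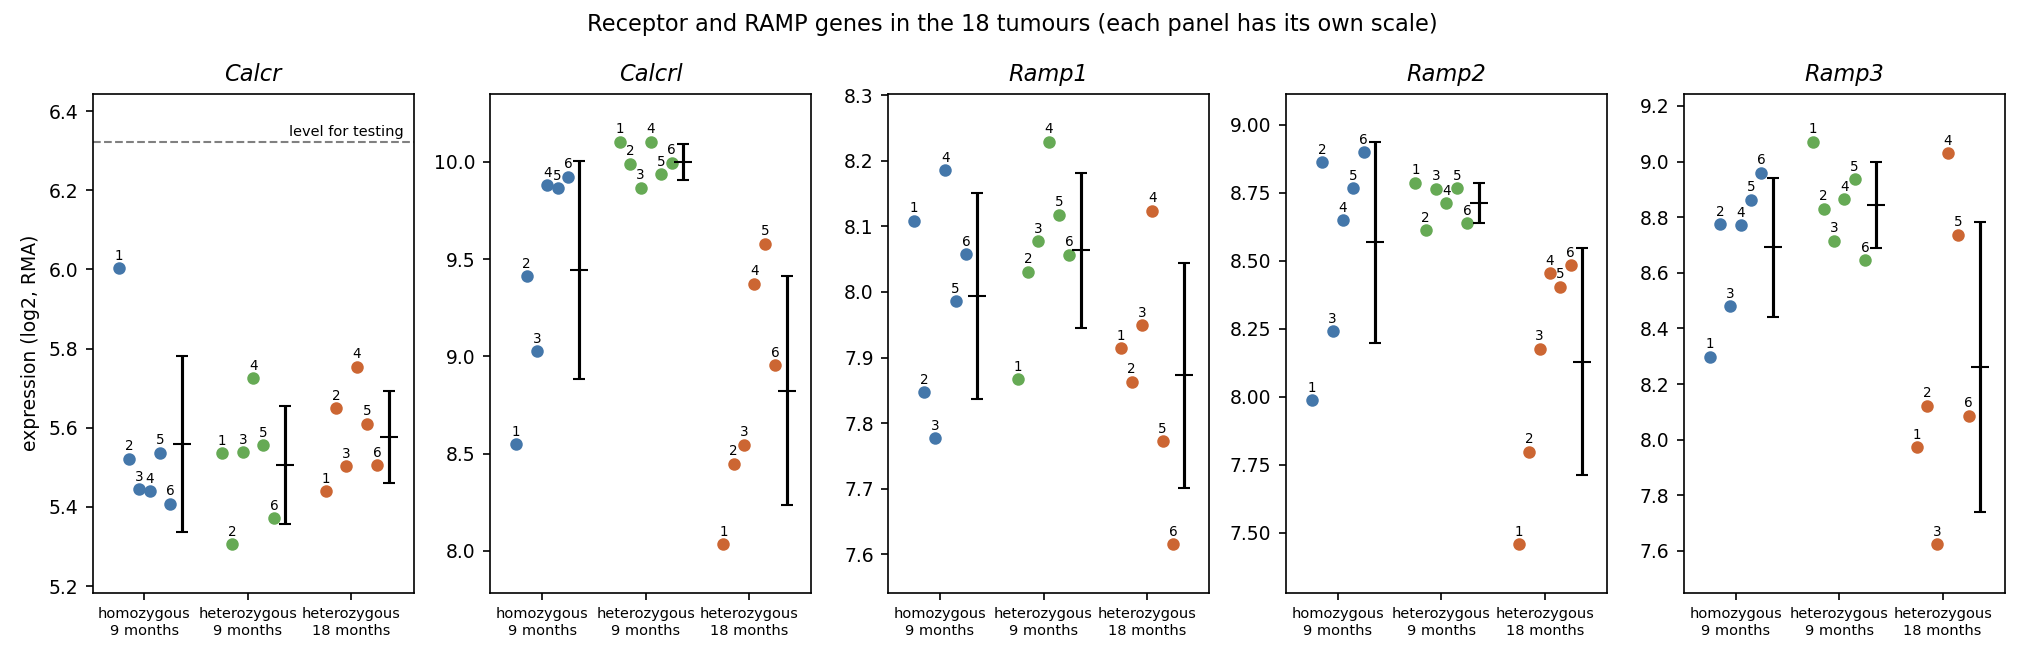
Expression of the receptor gene Calcr, the shared receptor gene Calcrl and the partner genes Ramp1, Ramp2 and Ramp3 in log2 units (vertical axes, one scale per panel) in the 3 groups; points are tumours numbered by replicate, bars the mean and SD, and the dashed line in the Calcr panel the level for testing at 6.32. Calcrl and Ramp2 of all 6 tumours of 18 months lie below every heterozygous tumour of 9 months, and Calcr stays below the line throughout.

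Markers of endothelium were also lower at 18 months, though replicate 4 kept a mean of these genes within the younger range. Of 19 endothelial genes tested, 18 fell and 1 did not pass between 9 and 18 months, with a median of -0.81 against -0.0045 over all genes. Among those that fell were the adhesion genes Pecam1 (-1.09, SE 0.25) and Cdh5 (-0.78, SE 0.17). The list mean ran from 9.46 to 9.69 in heterozygous tumours of 9 months. At 18 months it was 7.86, 8.20, 8.33 and 8.59 in replicates 1, 2, 3 and 6, and 9.50 and 9.28 in replicates 4 and 5. All 19 were bright enough to be tested. The tumour lowest for this list, replicate 1, was also lowest for Calcrl and Ramp2, while replicate 3 was lowest for Ramp3 (7.62). Replicate 6, at 8.59 for the list, had the highest Ramp2 of the older tumours (8.48). Other lists of the surroundings also held lower genes: 8 of 8 adipocyte genes, 6 of 12 fibroblast genes (1 rose) and 2 of 5 parathyroid genes (1 rose) fell. For smooth muscle and pericytes 1 of 12 fell (1 rose), and over all genes 22.4% fell and 21.6% rose. The list of lymphatic endothelium held 1 gene that fell, 1 that rose and 4 that missed the threshold; its mean ran from 8.48 to 9.79 at 18 months, highest in replicate 6, and from 9.16 to 9.30 in the younger heterozygous tumours. The part of these cell types in the fall of the receptor genes was not tested.

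**Figure D3:**
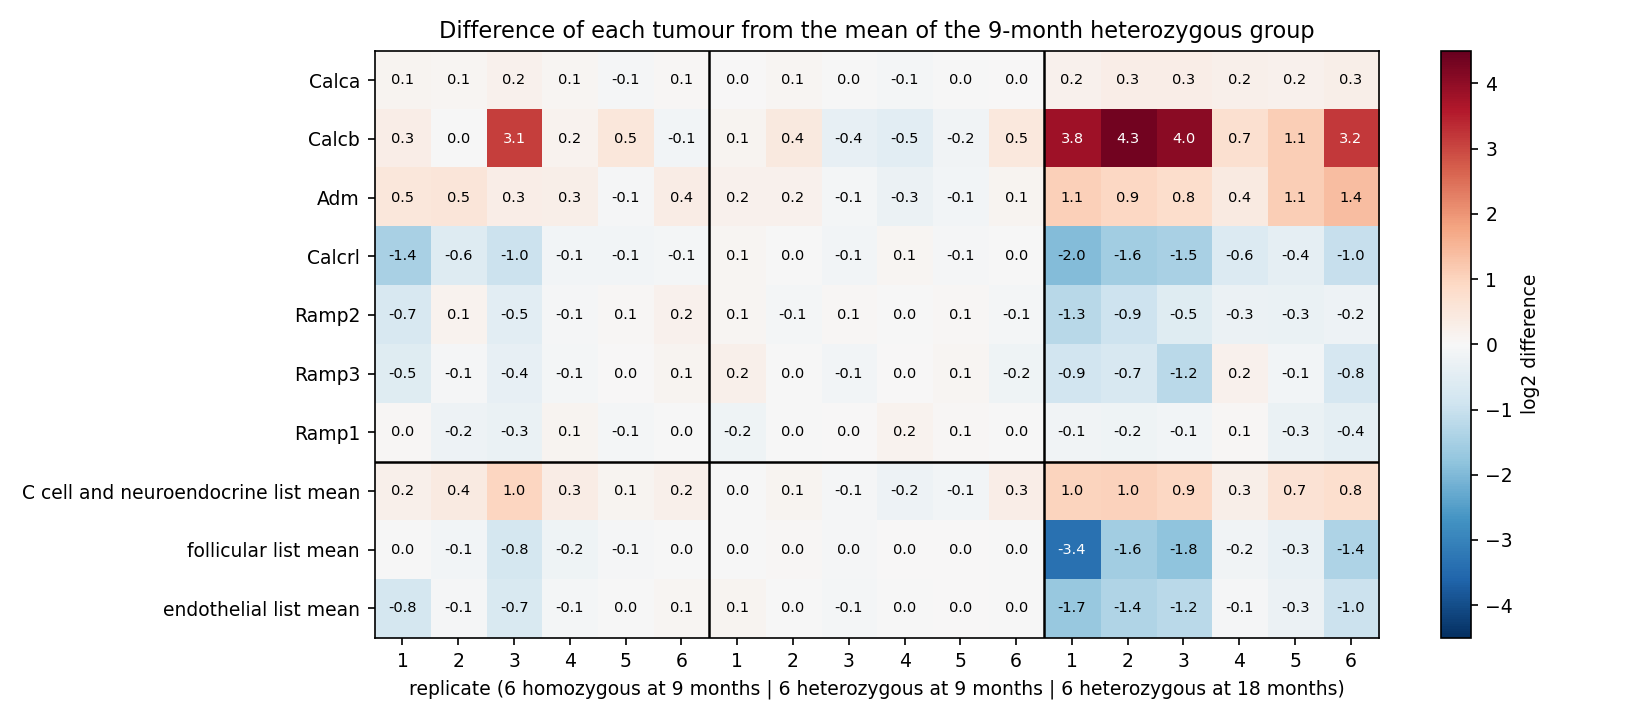
Log2 difference of each of the 18 tumours (columns, in 3 groups of 6) from the mean of the 9-month heterozygous group, for the 7 tested genes of the family and the means of 3 cell type lists (rows). In replicates 1, 2, 3 and 6 of the 18-month group Calcb is 3.19 to 4.33 higher and the endothelial list mean differs by -0.97 to -1.70, while in replicates 4 and 5 Calcb is 0.74 and 1.11 higher.

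Homozygous and heterozygous tumours were compared at 9 months, to ask what the second mutant allele adds. Of the 7 tested genes of the family 0 passed limma's threshold, and 0% of all genes did. The groups of 6 overlapped for all 7; over all genes they did not for 0.651% (higher) and 0.915% (lower). At an unadjusted p under 0.05 limma listed 2 of the 7, Adm and Calcrl, against 8.75% of all genes. The exact permutation test also listed 2 at an unadjusted p under 0.05, where it listed 16.3% of all genes, and it called 0 of 7 and 0% of all genes after adjustment.

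Adm measured 8.33 at lowest, 8.73 at the median and 8.92 at highest in homozygous tumours, and 5 of these 6 lay above every heterozygous tumour of that age. Its difference was 0.32 (SE 0.14, 95% interval 0.02 to 0.61; limma adjusted p = 0.544). Calcrl in homozygous tumours ran from 8.55 to 9.92 with a median of 9.64, and 4 of 6 lay below every heterozygous tumour. The difference was -0.56 (SE 0.26, 95% interval -1.10 to -0.02; limma adjusted p = 0.560), and it rested largely on homozygous replicates 1 (8.55) and 3 (9.02). These 2 tumours also had the lowest endothelial list means of their group, 8.78 and 8.88 against 9.47 to 9.65 in the other 4; the part of this in the difference was not tested.

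Calcb showed 1 high tumour. Homozygous replicate 3 measured 12.10, within the range of the 18-month tumours, while the other 5 lay between 8.85 and 9.51. The mean of Calcb was 9.65 ± 1.22 (SD, n = 6) against 8.99 ± 0.41, a difference of 0.66 (SE 0.63, 95% interval -0.66 to 1.98; limma adjusted p = 0.771), and without that tumour 0.17. The same tumour had the highest Calca of its group (14.02), the highest C cell list mean (10.1 against 9.23 to 9.52) and the lowest follicular list mean (10.02 against 10.6 to 10.8). Calca differed by 0.09 (SE 0.05, 95% interval -0.01 to 0.19; limma adjusted p = 0.596). Ramp1, Ramp2 and Ramp3 differed by -0.07 (95% interval -0.25 to 0.11), -0.15 (-0.52 to 0.23) and -0.15 (-0.55 to 0.24), with limma adjusted p-values of 0.815 to 0.821.

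In the remaining comparison, heterozygous tumours of 18 months against homozygous tumours of 9 months, age and genotype differ together and cannot be told apart. It shares the 18-month group with the age comparison and the homozygous group with the genotype comparison. The 3 peptide genes were higher at 18 months and 0 receptor genes passed, where 29.8% of all genes passed, 13.6% higher and 16.2% lower. Calcb differed by 2.21 (SE 0.63; limma adjusted p = 0.0172), Adm by 0.63 (SE 0.14; 0.00806 likewise) and Calca by 0.15 (SE 0.05; 0.0231 likewise). The groups overlapped for all 7 genes tested: 5 of 6 older tumours for Adm, and 4 of 6 for Calca and Calcb, lay above every homozygous one. Over all genes the groups did not overlap for 0.994% (higher) and 1.26% (lower). Calcrl differed by -0.62 (SE 0.26; limma adjusted p = 0.0750), Ramp2 by -0.44 (SE 0.18; 0.0702) and Ramp3 by -0.43 (SE 0.19; 0.0924). Without replicates 4 and 5 of the 18-month group these 3 passed as well, at -0.95, -0.59 and -0.74, and Calcb differed by 3.19. Replicates 4 and 5 had stood out by their values in these data, so this fit does not check the size of the differences. Calcrl and Ramp2 also passed without any 1 of 18-month replicates 4 and 5 and homozygous replicates 1 and 3 (Calcrl -0.80 to -0.70, Ramp2 -0.55 to -0.49), and Ramp3 without either of the former (-0.58 and -0.52). Calca missed the threshold without 18-month replicate 2 (0.15) or 3 (0.14) or homozygous replicate 5 (0.12), with limma adjusted p-values up to 0.0597. With only these groups in the fit 1 of the 7 genes passed, Adm (limma adjusted p = 0.0449), and by the exact permutation test 0 did, with 0% of all genes. At an unadjusted exact p under 0.05 the permutation test listed 3 of the 7 genes and 33.5% of all genes.

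**Figure D4:**
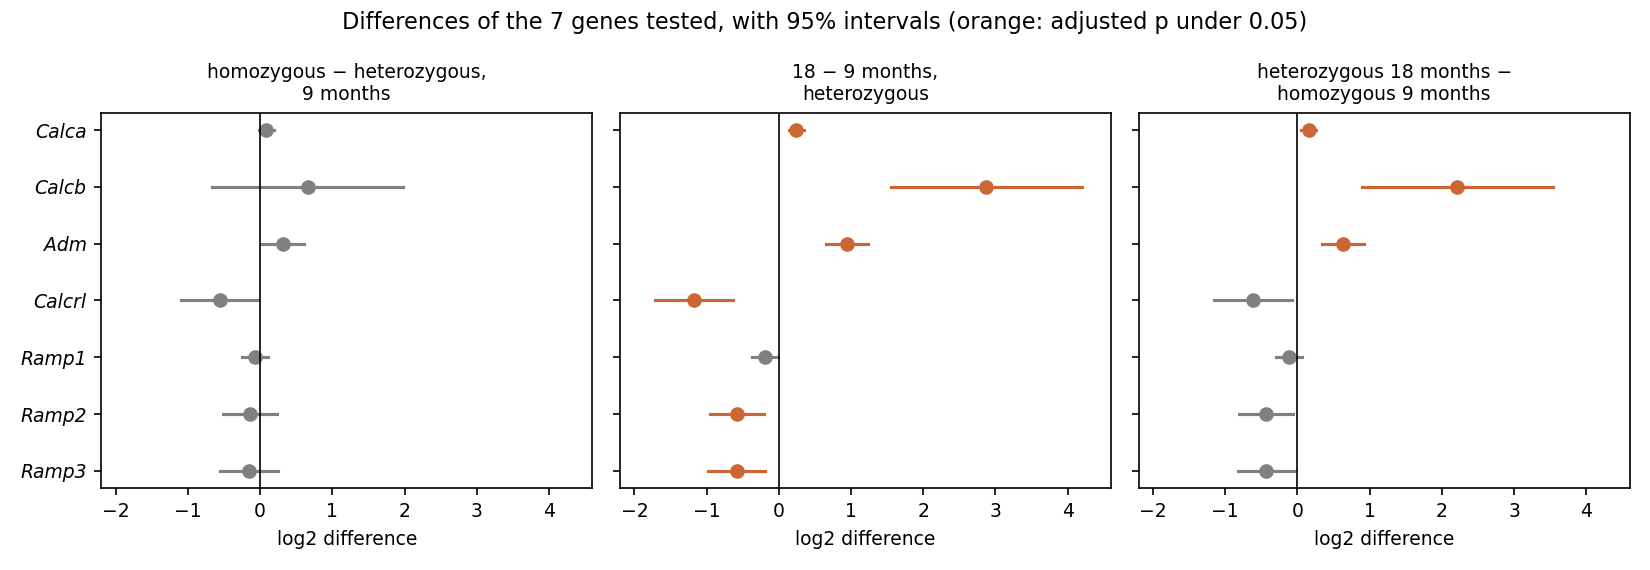
Log2 differences (horizontal axes) of the 7 tested genes with 95% intervals from limma in the genotype comparison at 9 months, the age comparison in heterozygous tumours and the comparison of 18-month heterozygous with 9-month homozygous tumours. Orange marks a limma adjusted p under 0.05: 0, 6 and 3 genes.

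Genes that vary like each member from tumour to tumour were sought on values centred within each group, over the 18 arrays, and are given as a description. For Calca the likest gene was Cyp2r1, a vitamin D hydroxylase (r = 0.84, and 0.83 over 15 arrays without 18-month replicates 4 and 5 and homozygous replicate 3), followed by the non-coding Snhg11 (0.82) and Kctd8 (0.82). Pcsk1n, which encodes the granule protein proSAAS, came next (0.82). For Calcb it was Gng3, a neuronal G protein gamma subunit (r = 0.99, and 0.86 without those 3 arrays), which lay between 7.33 and 7.98 in heterozygous tumours of 9 months. At 18 months Gng3 lay between 10.4 and 11.1 in replicates 1, 2, 3 and 6, and at 7.86 and 8.40 in replicates 4 and 5, the former within the younger range. It stood at 10.9 in homozygous replicate 3. Tmx4 (0.97), Rgs17 (0.96) and the N-cadherin gene Cdh2 (0.96) followed for Calcb; without the 3 arrays they stood at 0.65, 0.62 and 0.83. For Adm they were Tti2 (0.87), Lhfpl5 (0.81) and the Wnt receptor Fzd3 (0.80), with 0.87, 0.82 and 0.81 over 15 arrays.

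Among the receptor genes Calcrl was likest to the integrin Itga1 (r = 0.96), to Steap4 (0.96), Myct1 (0.95) and the endothelial receptor Tie1 (0.94), and Ramp3 to Arhgef15 (0.94), to the endothelial receptor Robo4 (0.93) and to the VEGF receptor Kdr (0.92). Ramp2 was likest to Tmem140 (0.92), the growth factor Igf1 (0.92) and Steap4 (0.92). Ramp1 was likest to Rpp25 (0.84), Dusp13b (0.82), Sytl3 (0.81), Rgs20 (0.79) and the muscle myosin Myh4 (0.79). Within heterozygous tumours of 9 months the r of Ramp1 and Myh4 was 0.39. The mean of 10 skeletal muscle genes ran from 6.80 to 11.7 over the 18 tumours, and the part of muscle RNA in the variation of Ramp1 was not tested. Within the family Calcrl and Ramp2 had an r of 0.87, and Calcrl and Ramp3 one of 0.79, against 0.07 for Calcrl and Ramp1. Over the 15 arrays these were 0.85, 0.64 and -0.24. In heterozygous tumours of 9 months, where these genes hardly varied, the r of Calcrl and Ramp2 was -0.04. Calca and Calcb had an r of 0.51 over 18 arrays and 0.21 over 15. Calcb and Adm had one of 0.24 over 18 arrays, which turned to -0.15 over 15. The r of Calca and Adm was 0.46 over 18 arrays and 0.61 over 15, but 0.03 within the 18-month group. These points share arrays and their mix of cells, and genes are not independent replicates.

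The peptides are made from longer precursors, cut by convertases, trimmed by carboxypeptidases and amidated. Of 9 processing genes tested 7 rose, 2 fell and 0 did not pass between 9 and 18 months, where 21.6% of all genes rose and 22.4% fell. The median difference of the list was 0.86 against -0.0045 over all genes. Pcsk1n, which inhibits the convertase PC1/3, rose by 1.49 (SE 0.18), Furin, a convertase of many cell types, by 0.63 (SE 0.10) and the granule convertase Pcsk2 by 0.86 (SE 0.13). Pcsk5, a further convertase, fell by 1.49 on the log2 scale (SE 0.33) and the carboxypeptidase Cpd by 0.32 (SE 0.07). For these 5 the largest limma adjusted p was 0.00208 (Pcsk5). The cell type list of C cell genes also holds 4 of the 9, Pcsk2, Cpe, Pam and Scg5, so the lists are not independent. In the genotype comparison 0 of the 9 and 0% of all genes passed, with Pcsk1n at 0.91 (SE 0.18, limma adjusted p = 0.118).

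Of 9 genes of peptide clearance 2 rose, 5 fell and 2 did not pass (median -0.24), where 21.6% of all genes rose and 22.4% fell. The endothelin-converting peptidases Ece1 and Ece2 rose by 0.46 (SE 0.07) and 0.71 (SE 0.12). Falls were measured for the peptidases Mme (-1.19, SE 0.24) and Dpp4 (-1.45, SE 0.37) and for the mast cell chymase Cma1 (-0.97, SE 0.21). Cma1 and 2 others of this list, Tpsab1 and Tpsb2, are mast cell genes, and in the list of 6 tested mast cell genes 3 fell and 0 rose. Of 23 genes of receptor signalling through cAMP 12 rose, 3 fell and 8 did not pass (median 0.34). Crtc1, a coactivator of CREB, rose by 0.53 (SE 0.07), and the adenylyl cyclases Adcy3 and Adcy2 by 1.05 (SE 0.16) and 1.34 (SE 0.23). The receptor adaptor Arrb1 fell by 1.08 on the log2 scale (SE 0.29), the phosphodiesterase Pde4b by 0.56 (SE 0.19) and the cyclase Adcy4 by 0.25 (SE 0.10). By the exact permutation test Arrb1, Pde4b and Adcy4 did not pass (adjusted p-values of 0.0503, 0.0696 and 0.0582). Adcy4 and Pde4b also lost their calls without single arrays, among them 18-month replicates 1, 2 and 3 and, for Adcy4, replicate 6, and 9-month heterozygous replicates 1, 2, 3 and 5 for Adcy4 (limma adjusted p up to 0.0990) and 4, 5 and 6 for Pde4b (up to 0.0696).

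Of 10 genes linked to Calca transcription 4 rose, 2 fell and 4 did not pass (median 0.10), where 21.6% of all genes rose and 22.4% fell. The forkhead factor Foxa2 rose by 1.57 (SE 0.26), the homeobox factor Isl1 by 1.29 (SE 0.25) and Usf2, a factor that binds E-boxes, by 0.18 (SE 0.05). Rest, the repressor of neuronal genes, fell by 1.31 on the log2 scale (SE 0.29) and Nkx2-1, a factor of C cells and follicular cells, by 0.37 (SE 0.10). Foxa2, Isl1 and Nkx2-1 are also in the C cell list. Of 17 genes of splicing factors 8 rose, 1 fell and 8 did not pass (median 0.12). The neuronal RNA-binding genes Nova1, Celf3 and Elavl4 rose by 1.01 (SE 0.16), 1.65 (SE 0.31) and 1.70 (SE 0.34), and Ptbp2, the neural polypyrimidine tract binding protein, fell by 0.32 on the log2 scale (SE 0.08). With 1 Calca probe set the balance of calcitonin and CGRP mRNA was not measured.

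Adm is a textbook hypoxia target. Of 33 other tested genes listed for that response 5 rose, 9 fell and 19 did not pass, with a median of -0.03. Over all genes 21.6% passed higher and 22.4% lower. The carbonic anhydrase Car9 rose by 0.65 (SE 0.15), Ankrd37 by 0.86 (SE 0.21) and the oxidoreductase Ero1a by 0.40 (SE 0.11). The vessel growth factor Vegfa fell by 0.98 on the log2 scale (SE 0.20), Ndrg1 by 1.15 (SE 0.25) and the phosphofructokinase Pfkp by 0.51 (SE 0.11). For these 6 the largest limma adjusted p was 0.00886 (Ero1a). The part of hypoxia in the rise of Adm was not tested.

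**Figure D5:**
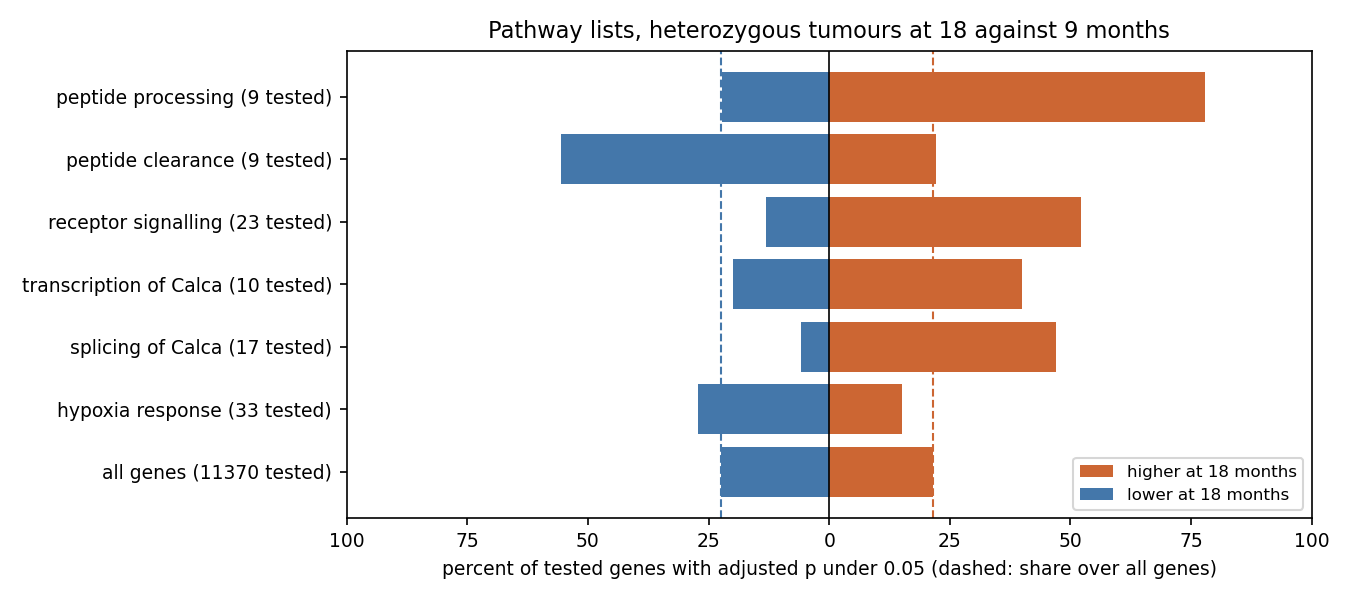
Share of the tested genes of 6 pathway lists that passed limma's threshold in heterozygous tumours at 18 against 9 months, higher to the right and lower to the left (horizontal axis, percent); dashed lines give the shares over all 11370 genes, 21.6% and 22.4%. Of the processing list 7 of 9 rose, and of the hypoxia list 5 of 33.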

How the data were processed

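Expression was measured in 18 tumours on Affymetrix arrays after whole-transcript amplification and biotin labelling with NuGEN kits, per the labels' protocols. The values deposited by the authors are log2 intensities, normalised by RMA. The submitters' processing notes name this method and Expression Console 1.3.0.187 without their roles; genome build and scan dates are not given in the sources used here. Array medians lay between 7.55 and 7.65, and no 2 arrays were identical. Arrays give no depth; their number limits the precision.

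Of 29214 probe sets 15310 had 1 gene symbol in the platform annotation, 323 several and 13581 none. For genes with more than 1 probe set (527 of 14506) the one with the highest mean was used, and the 11370 genes with a mean of at least 6.32, the 30th percentile over probe sets, were tested. A means model of the 3 groups, which come from the labels, was fitted with lmFit and eBayes of limma 3.58.1 (R 4.3.3) on all 18 arrays. A gene passed at a Benjamini-Hochberg adjusted p under 0.05 over all genes tested; tests are two-sided, and SEs, intervals and adjusted p-values are limma's unless stated. The family, the gene lists and the alternatives were chosen with earlier results of these data known. Genes named from a list are up to 3 called risers and 3 called fallers with the smallest p in the age comparison, or the 2 with the smallest p where none was called; likeness is Pearson's r. Alternatives were filters, a replicate block, fewer groups or arrays, eBayes settings, array weights, scalings, probe set means and an exact permutation test; leaving out 3 arrays together was added after the data had been seen. The 18-month replicates 4 and 5, left out in some fits, were the older tumours lowest on the first principal component. Fits without them therefore tend to widen differences and do not check their size. The main fit was tested on simulated arrays. Sequences are from RefSeq.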

Additional observations from a re-analysis of the deposited data

Results flagged for a closer look

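In 30 groups (8 genes of the family with Iapp and Adm2, in 3 groups of 6) the highest or lowest tumour was set against its nearest neighbour, and 5 groups held a tumour farther off than Dixon's critical value of 0.625 of the range. Chance alone is expected to mark about 5% of groups.

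Calcb in homozygous tumours had replicate 3 at 12.095, where the next highest tumour measured 9.51 (a gap of 0.797 of the range). Calcr had homozygous replicate 1 at 6.003, next to 5.54 (0.783), all below the level for testing. Iapp, the amylin gene, had 1 high tumour in each group: homozygous replicate 3 at 7.171 (next 6.02; 0.740), heterozygous replicate 6 of 9 months at 7.794 (next 6.06; 0.831) and heterozygous replicate 2 of 18 months at 8.382 (next 6.62; 0.716). Homozygous replicate 3 was thus marked for both Calcb and Iapp.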

How the results depend on the processing

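Over 30 alternatives, none of the values of the 7 tested genes changed sign in any of the 3 comparisons. In the genotype comparison all 210 values stayed on their side of the threshold, with 0 of the 7 genes called throughout. In the age comparison 204 of 210 did; the exceptions were Ramp3 by the exact permutation test and 5 values of Ramp1, which passed with array weights, without 18-month replicate 4 or 9-month heterozygous replicate 1, and without 18-month replicates 4 and 5, alone or with homozygous replicate 3. Calca, Calcb and Adm kept their calls there under every alternative, with rises of 0.23 to 0.26, 2.58 to 3.30 and 0.86 to 1.05 without each array in turn, and 6 to 7 genes were called. The comparison of 18-month heterozygous with 9-month homozygous tumours was least firm (181 of 210). By the exact permutation test Calca, Calcb and Adm had adjusted p-values of 0.0919, 0.1003 and 0.0919 at unchanged differences of 0.15, 2.21 and 0.63, and 0 genes of the family passed. With only the compared groups in the fit Calca (0.15) and Calcb (2.21) missed the threshold (limma adjusted p of 0.0713 and 0.0641), and 1 gene passed. Without each array in turn Calca ran from 0.12 to 0.18, Calcb from 1.92 to 2.702 and Adm from 0.54 to 0.73, and 2 to 6 genes passed. Array weights gave 6 genes, leaving out 18-month replicates 4 and 5 gave 6, and leaving out homozygous replicate 3 with them also 6. The replicate number as a block gave 5 of the 7 in that comparison, 6 in the age and 0 in the genotype comparison. Same-numbered tumours deviated together (r over 0.1) in 4 of 6, 1 of 6 and 2 of 6 pairs in the age, the genotype and this comparison. In these, 3, 1 and 1 of 6 tumours were likest to the tumour of their own number. Each array has its own animal code, and the numbers were not taken as pairs. Whether they mark a link in the age comparison was not settled.

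Over all genes, the genotype comparison called 0 genes, but 118 with array weights, 24 with only the compared groups, 1 with median centring, 0 to 2 without each array in turn, 7 without 18-month replicates 4 and 5 and 4 without homozygous replicate 3 as well. The comparison of 18-month with homozygous tumours called 3392, but 0 by exact permutation, 708 with only the compared groups, 2116 to 4702 without each array in turn, 5392 without 18-month replicates 4 and 5 and 5896 without homozygous replicate 3 as well. The cause of these shifts was not tested. Among the neighbours of Calca and Calcb, the uncalled differences of Psma1 (-0.026 to 0.048) and Sox6 (-0.15 to 0.096) changed sign without single arrays, and that of Sox6 also did with further quantile normalization (0.015) and without 18-month replicates 4 and 5, with or without homozygous replicate 3 (0.057). Brightness limits Calca from above, and Calcr and Iapp from below.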

Other observations

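Calca and Calcb lie next to each other on chromosome 1 of the RefSeq assembly GRCr8, with 0 protein-coding genes between them. Of the 10 nearest protein-coding neighbours, 5 on each side, 6 were measured and tested, a set looked at after the likeness of Calca and Cyp2r1 had been seen. Beyond Calca, Cyp2r1, a vitamin D hydroxylase, rose between 9 and 18 months by 1.02 (SE 0.20, limma adjusted p = 0.00100) and Pde3b, a phosphodiesterase, by 1.05 (SE 0.21, limma adjusted p = 0.00116). For both, every older tumour lay above every younger heterozygous one, as was so for 9.07% of all genes. Over all genes 21.6% passed higher in this comparison and 22.4% lower. The proteasome gene Psma1, farther out on that side, differed by 0.02 (SE 0.07). Beyond Calcb, Insc, a factor of spindle orientation, rose by 0.48 (SE 0.17, limma adjusted p = 0.0253), though not without 18-month replicate 2 (0.37) or 3 (0.44) or 9-month heterozygous replicate 1 (0.44), with limma adjusted p-values of 0.0559 to 0.0660. Sox6 and Rps13 differed by -0.01 (SE 0.20) and -0.10 (SE 0.06). In homozygous tumours of 9 months Cyp2r1 ranged from 10.6 to 12.2, with replicate 3 highest, as it was for Calca and Calcb.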
